A study of Caenorhabditis elegans with 2 samples.

Results

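The vitellogenin genes are the 6 genes vit-1 to vit-6 of Caenorhabditis elegans, chosen by name from 19971 nuclear protein-coding genes of the RefSeq annotation. Regions were assigned to them by position: a region belonged to a gene when its summit lay inside the gene or within 1000 bp of it. Vitellogenins are the precursors of yolk. They are large lipid-carrying proteins, made in the intestine of the adult hermaphrodite, secreted into the body cavity and taken up by oocytes. Their genes are known as a textbook case of transcription limited to one tissue, one sex and one stage. Expression was not measured here, so the intestinal label is background. Whole animals were used, and signal from the intestine cannot be told apart from that of other tissues.

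The data are chromatin immunoprecipitation with sequencing (ChIP-seq) of SDZ-38 carrying a C-terminal GFP-FLAG tag, in 2 biological replicates of 1 group. Both came from whole hermaphrodites of strain OP543 at the young adult stage, 64 hours after synchronization by starvation of bleached L1 larvae, and chromatin was sheared by sonication. The sample description gives an anti-GFP antibody, whereas the antibody field names sdz-38. The sources used here do not name the promoter that drives the transgene, and no list from animals without the tag is analysed here. What follows is therefore a description of where regions lay, with no contrast between conditions. Nothing in it shows that a region marks SDZ-38 itself.

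Each replicate has a lenient list that holds peaks and background together, with 17743 regions in replicate 1 and 12648 in replicate 2. A pooled lenient list of 1242 regions and an optimal list of 102 regions were made from both. The authors gave each region a signal value, a score of unstated scale, which here orders regions within a list, rank 1 being the strongest. The median signal value was 16.5 in replicate 1, 15.5 in replicate 2 and 44.1 in the pooled list. Read depth is not in the lists. The reference for the 5 genes on X was 522 other protein-coding genes of X of similar length, and the reference for vit-6 was 404 such genes of chromosome IV. All of these matched genes were 3850 to 7051 bp long.

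The promoters of vit-2, vit-3, vit-4 and vit-6 are shown because vit-2 held the 1 promoter summit of the family, vit-3 and vit-4 share an identical stretch, and vit-6 is the member on another chromosome. Each runs from 250 bp before to 50 bp from the first base of the gene, 5′ to 3′ on the gene's strand (RefSeq, build WBcel235, which is ce11). Capitals mark the letters TGTCAAT and CTGATAA on either strand, the vitellogenin promoter elements known as VPE1 and VPE2. The second contains the core of the sites bound by GATA factors such as ELT-2, the main GATA factor of the worm intestine.
vit-2 (chrX:5100782-5101081, plus strand): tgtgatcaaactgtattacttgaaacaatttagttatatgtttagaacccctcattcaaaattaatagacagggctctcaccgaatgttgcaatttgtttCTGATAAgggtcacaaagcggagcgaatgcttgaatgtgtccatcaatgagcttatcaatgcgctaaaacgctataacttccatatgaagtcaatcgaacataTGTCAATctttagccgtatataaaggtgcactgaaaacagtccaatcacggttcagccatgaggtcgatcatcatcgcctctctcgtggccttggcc
vit-3 (chrX:3572500-3572799, minus strand): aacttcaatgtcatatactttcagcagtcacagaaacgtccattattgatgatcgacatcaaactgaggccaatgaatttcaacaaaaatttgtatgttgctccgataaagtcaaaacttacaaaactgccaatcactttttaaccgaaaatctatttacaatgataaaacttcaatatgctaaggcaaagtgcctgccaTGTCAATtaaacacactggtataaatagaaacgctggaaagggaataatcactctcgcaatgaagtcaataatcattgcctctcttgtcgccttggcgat
vit-4 (chrX:3563916-3564215, minus strand): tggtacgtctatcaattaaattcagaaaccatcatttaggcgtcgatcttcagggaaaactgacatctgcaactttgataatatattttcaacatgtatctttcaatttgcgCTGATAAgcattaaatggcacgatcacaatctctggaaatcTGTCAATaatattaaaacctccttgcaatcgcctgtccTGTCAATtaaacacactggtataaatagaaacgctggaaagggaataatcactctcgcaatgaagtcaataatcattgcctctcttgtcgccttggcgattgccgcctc
vit-6 (chrIV:8260907-8261206, plus strand): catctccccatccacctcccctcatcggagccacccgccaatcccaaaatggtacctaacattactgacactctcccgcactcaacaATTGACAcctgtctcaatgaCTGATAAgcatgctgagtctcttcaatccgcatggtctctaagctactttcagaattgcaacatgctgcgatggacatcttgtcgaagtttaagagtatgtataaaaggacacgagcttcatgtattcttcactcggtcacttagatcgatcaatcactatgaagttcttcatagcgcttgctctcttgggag

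TGTCAAT was present in the promoters of all 6 vit genes, with 2 copies each in vit-4 and vit-5. It was present in 5.75% of 19971 nuclear protein-coding promoters of the same length, and 0.215% held at least 2 copies. CTGATAA was present in 5 of the 6, vit-3 being the exception, and in 8.21% of all promoters. Only the full run of letters was counted, and the vit-3 promoter does hold TGATAA without the leading C. Both motifs were chosen as known elements of vitellogenin promoters, so their presence in these promoters is no independent result. The shares over all promoters are given for scale only. A match of letters is not a bound site. With positions counted from 0 at the first base of the gene, the copy of TGTCAAT nearest the start began at −47 in vit-2, −50 in vit-3, −59 in vit-4 and −48 in vit-5, at −115 in vit-1 and at −163 in vit-6. The promoters of vit-3 and vit-4 shared an identical stretch of 100 bp, which in vit-3 ran from −50 to the end of the window and opened with TGTCAAT. The longest stretch shared by vit-1 and vit-2 was 12 bp.

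Only vit-2 had a summit in this promoter window, and only in replicate 1. Its summit lay 37 bp before the first base, 10 bp downstream of the start of the TGTCAAT copy at −47. The signal value there was 23.5. In all 1 of 6 vit promoters held a summit in replicate 1, against 5.70% of all nuclear protein-coding promoters, and 0 of 6 did in replicate 2, against 4.30%. The members' shares rest on 6 promoters and 1 summit, which is too few to set apart from that background.

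No vit gene had an optimal peak. Among length-matched genes 1.15% on X and 0.248% on IV did, and 6 vit genes are too few to set apart from such shares. The nearest optimal summit lay 367367 bp from vit-5, the closest case, and 1211227 bp from vit-6, the farthest. In the pooled list vit-2 alone had a region (17.4% of matched genes on X had 1, and 7.92% on IV). The lenient lists placed a summit at 5 of the 6 genes in replicate 1, at 4 in replicate 2 and at 3 in both. The X reference had 86.8%, 75.7% and 68.4% of its genes with a summit in replicate 1, in replicate 2 and in both. The reference on IV had 70.8%, 55% and 42.6%. On X alone, 4 of the 5 vit genes had a summit in replicate 1, 3 in replicate 2 and 2 in both.

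Within the family the genes differed. In replicate 1 there were 6 summits at vit-2, 5 at vit-6, 2 at vit-1, 1 each at vit-3 and vit-5, and 0 at vit-4. In replicate 2 there were 3 summits each at vit-2 and vit-6, 1 each at vit-1 and vit-4, and 0 at vit-3 and vit-5. Thus vit-2 and vit-6 had the most in both replicates, vit-1 fewer, and the near-identical vit-3, vit-4 and vit-5 at most 1. Among these last 3 the order changed between replicates, so none can be placed above another. The median matched gene on X had 2 summits in replicate 1 and 1 in replicate 2, and on IV 1 in each.

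**Figure D1:**
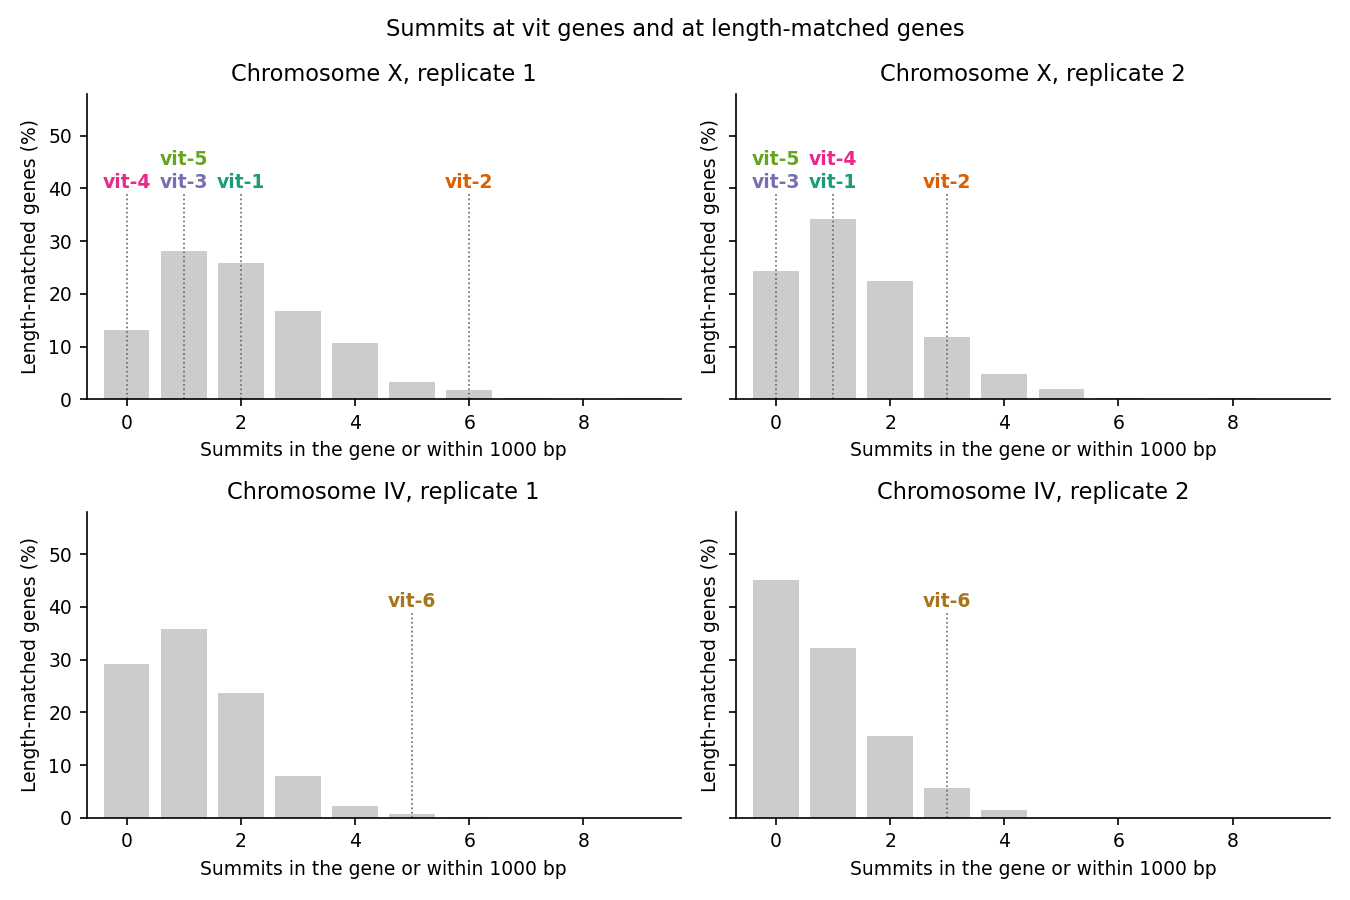
Number of summits in the gene or within 1000 bp (horizontal axis) for the vit genes, named at their counts, over the share of length-matched genes of the same chromosome with each count (grey bars, vertical axis in percent), by replicate. In replicate 1 vit-2 stands at 6 and vit-6 at 5, while vit-3, vit-4 and vit-5 stand at 0 or 1 in both replicates.

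vit-2 (WBGene00006926, C42D8.2) lies on the plus strand of X at 5101032 to 5106169. In replicate 1 its 6 summits had signal values of 23.5, 20.4, 20.7, 20.1, 26.0 and 17.0 from the 5′ to the 3′ side, all above the median of that list. Of 505 genes matched to vit-2, 1.98% had at least 6 summits in replicate 1. In replicate 2 its summits had signal values of 16.6, 15.8 and 14.7, and 18.4% of matched genes had at least 3. The first of these lay 975 bp before the gene, in the ncRNA gene C42D8.16. The strongest region counted for vit-2 ranked 898 of 17743 in replicate 1 and 4779 of 12648 in replicate 2. Neither summit lay inside vit-2, the first being in the next gene, C42D8.9, and the second in C42D8.16. Of matched genes, 11.9% in replicate 1 and 44.6% in replicate 2 had a region at least as strong. Inside vit-2 the best ranks were 3258 and 5842.

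Part of the vit-2 count belongs to the gene next to it. The summits at 5106514 and 5106847 of replicate 1, the summit at 5106504 of replicate 2 and the only pooled summit, at 5106479, lay in coding exons of C42D8.9. That gene runs on the opposite strand from 5106159 to 5107042, overlaps the 3′ end of vit-2 by 11 bp, and encodes a CUPID domain-containing protein per RefSeq. The pooled region, chrX:5106251-5106706, had a signal value of 45.5 and ranked 511 of 1242. The summits of both replicates were 10 bp apart here, the closest pair at vit-2. Inside vit-2 itself there were 3 summits in replicate 1 and 1 in replicate 2, and 18.2% and 62.6% of matched genes had at least as many inside the gene. The sequence from 50 bp before to 50 bp after the pooled summit is shown on the plus strand, with the summit base in capitals, as the single stretch near the family that reached the pooled list.
C42D8.9 beside vit-2 (chrX:5106429-5106529): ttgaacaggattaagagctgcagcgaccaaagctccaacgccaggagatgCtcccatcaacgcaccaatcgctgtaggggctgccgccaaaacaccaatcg

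Within vit-2, the replicates met at 1 place. The region of replicate 1 with its summit at 5105311, in a coding exon, overlapped the region of replicate 2 with its summit at 5105523, in an intron, the summits being 212 bp apart. The promoter region of replicate 1 (chrX:5100753-5101236) overlapped the next region of that same list. Neither overlapped a region of replicate 2.

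vit-6 (WBGene00006930, K07H8.6) lies on the plus strand of chromosome IV at 8261157 to 8266459. Its product is cut after secretion and is the most distant member of the family. In replicate 1 its 5 summits had signal values of 17.9, 18.5, 17.6, 18.3 and 14.5 from 5′ to 3′, and 0.99% of 404 matched genes had at least 5. In replicate 2 its 3 summits had signal values of 15.97, 18.5 and 15.7, and 7.18% had at least 3. Inside vit-6 lay 3 and 2 of them, and 6.19% and 13.6% of matched genes had at least as many inside the gene. The strongest region ranked 5577 in replicate 1 and 2863 in replicate 2.

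The positions at vit-6 repeated at 2 places. In a coding exon, summits lay at 8263079 in replicate 1 and at 8263233 in replicate 2, 154 bp apart. In the next gene, K07H8.8, which encodes a sulfotransferase family protein per RefSeq, the summit was at 8267447 in both replicates, 988 bp past the 3′ end of vit-6. The promoter of vit-6 had no summit in either replicate, and the nearest pooled summit lay 20339 bp away.

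vit-1 (WBGene00006925, K09F5.2) lies on the plus strand of X at 7727889 to 7733168. Its regions did not repeat. In replicate 1 a summit with a signal value of 13.6 lay in a coding exon, and one with 13.8 lay in a coding exon of set-12, a SET domain gene 165 bp downstream. Both were among the weakest of the list, the stronger at rank 15897. In replicate 2 a single summit at 7732723, in a coding exon near the 3′ end, had a signal value of 20.8 and rank 1478, the highest rank of any vit region in that replicate. No region of replicate 1 overlapped it. Of genes matched to vit-1, 59.2% had at least 2 summits in replicate 1 and 75.9% at least 1 in replicate 2. A region at least as strong as the strongest of vit-1 was held by 84.5% of them in replicate 1 and 19.0% in replicate 2.

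vit-3 (WBGene00006927, F59D8.1, X at 3567355 to 3572549) and vit-4 (WBGene00006928, F59D8.2, X at 3558769 to 3563965) are neighbours on the minus strand, 3389 bp apart. Over the 15781 bp that hold both with 1000 bp on either side, each replicate had 1 summit. In replicate 1 it lay 34 bp past the 3′ end of vit-3, with a signal value of 14.9 and rank 12538. In replicate 2 it lay in the non-coding part of the last exon of vit-4, 13 bp inside the 3′ end, with a signal value of 13.9 and rank 9678. Both values were below the median of their list.

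vit-5 (WBGene00006929, C04F6.1) lies on the plus strand of X at 3403471 to 3408603, away from that pair. Its 1 summit, in replicate 1, lay in a coding exon 1072 bp from the 5′ end with a signal value of 14.0 and rank 15256. Replicate 2 had none. The 3 genes vit-3, vit-4 and vit-5 thus had 2 summits in replicate 1 and 1 in replicate 2 among them. Counts this small were common among matched genes. In replicate 1, at most 1 summit was found at 41.0% of genes matched to vit-3 and 41.4% of those matched to vit-5, and none at 13.1% of those matched to vit-4. In replicate 2, at most 1 was found at 58.2% of genes matched to vit-4, and none at 24.1% of those matched to vit-3. Of all 522 matched genes on X, 32.6% had no more than 1 summit in each replicate.

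**Figure D2:**
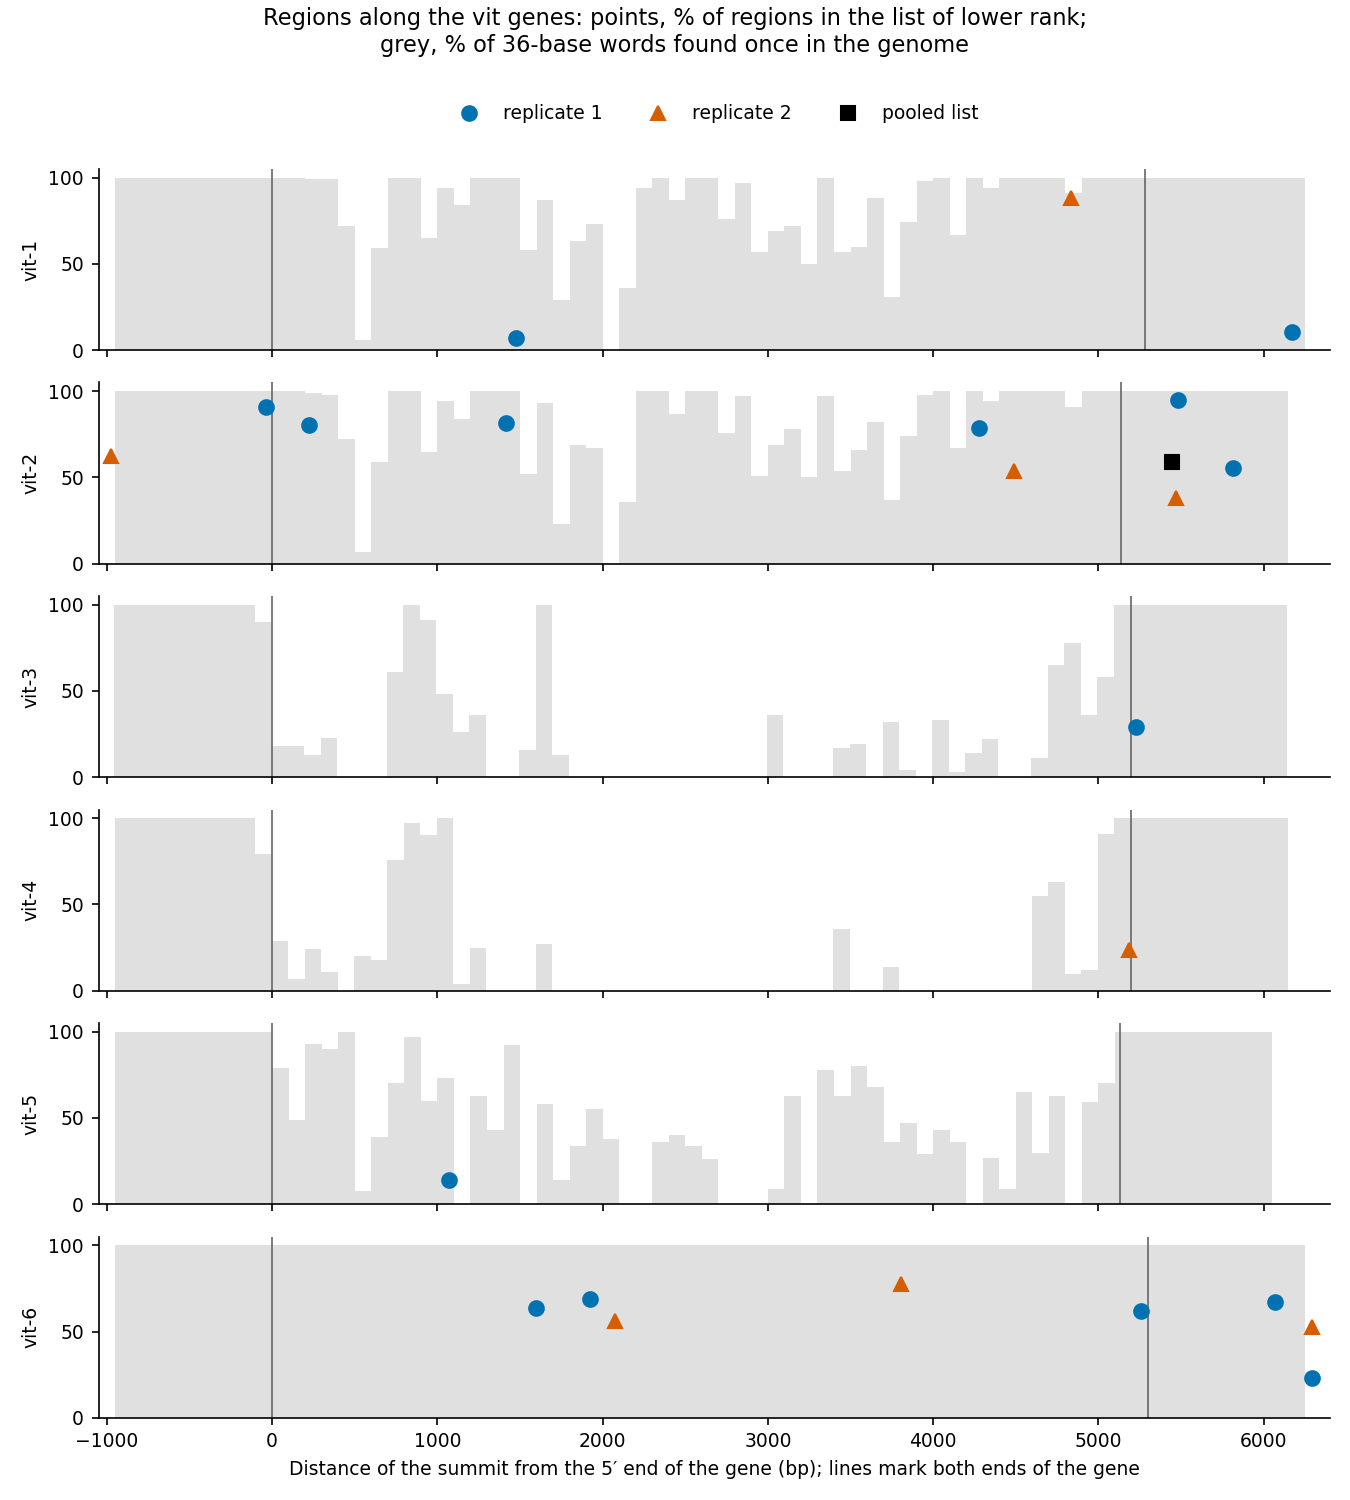
Summits along each vit gene, by distance from the 5′ end of the gene in bp, with points at the percentage of regions of the same list that rank lower (circles replicate 1, triangles replicate 2, square pooled list) and grey bars at the percentage of 36-base words that occur once in the genome. Both vertical lines mark the ends of the gene. The bodies of vit-3 and vit-4 hold few unique words, and their 2 summits lie at the 3′ ends, where unique sequence starts. The 1 summit of vit-5 lies inside the gene instead, in a region where 54.6% of words occur once.

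The genes also differed in how much of their sequence a read can be placed in. A word of 36 bases that occurs more than once in the genome cannot be assigned to 1 gene. Such words that occur once made up 80.7% of vit-1, 80.1% of vit-2, 21.1% of vit-3, 17.6% of vit-4, 42.4% of vit-5 and 100% of vit-6. The median matched gene had 100% on X and 99.4% on IV. Only 1 of the 522 matched genes on X had a share as low as vit-3 or vit-4, and 2 had one as low as vit-5. The sources used here give neither the read length nor the treatment of reads with several matches.

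The repeated words lay between the genes with the most similar proteins. Translated from the RefSeq coding sequence, the proteins have 1603 to 1651 residues. vit-3, vit-4 and vit-5 encode proteins with 97.9% to 98.7% identical residues, and vit-1 and vit-2 encode proteins with 94.05%. Identity between these 2 groups was 57.0% to 58.3%, and that of vit-6 with the others 32.7% to 33.5%. Of the 36-base words of vit-3, 75.4% also occurred in vit-4 and 49.8% in vit-5, and of those of vit-1, 19.3% occurred in vit-2. No word was shared between the groups or with vit-6.

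**Figure D3:**
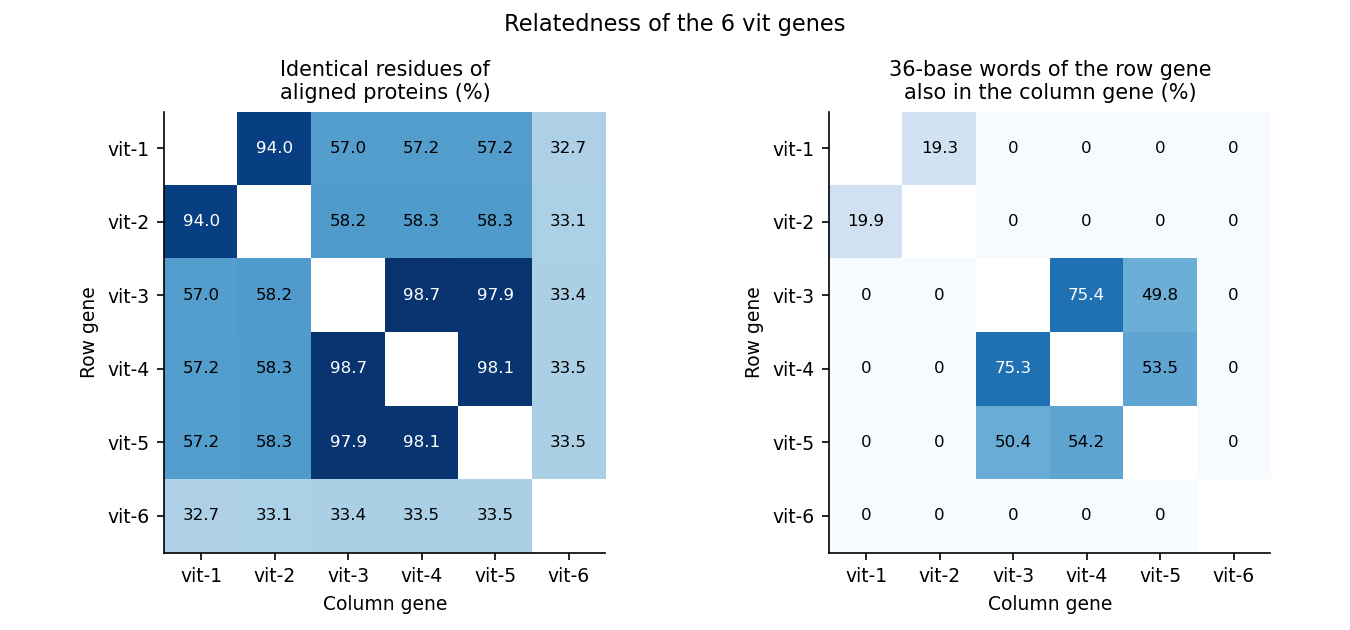
Left, percentage of identical residues between aligned proteins of each pair of vit genes. Right, percentage of 36-base words of the row gene that also occur in the column gene. vit-3, vit-4 and vit-5 form a block of 97.9% to 98.7% protein identity, vit-1 and vit-2 a pair at 94.05%, and vit-6 stands apart.

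Matched genes with repeated sequence were few. On X, the 3 matched genes with under 50% of words unique had 0 or 1 summit in each replicate, and on IV the 11 such genes had 0 or 1. The 484 genes on X with 90% or more had a median of 2 summits in replicate 1 and 1 in replicate 2, and the 323 such genes on IV a median of 1 in each. A count of 0 or 1 in each replicate was thus ordinary, held by 32.6% of all matched genes on X and 53.2% on IV. Counted per kb of unique words, vit-3 had 0.327 summits in replicate 1 and 0 in replicate 2, vit-4 had 0 and 0.349, and vit-5 had 0.239 and 0, against matched medians of 0.279 and 0.164 on X. On this scale vit-3 in replicate 1 and vit-4 in replicate 2 were above the matched median, and vit-5 below it in both. vit-2 had 0.981 and 0.490 and vit-6 0.685 and 0.411, the matched medians on IV being 0.152 and 0.131. Of matched genes on X, 0.766% and 8.43% reached the values of vit-2, and of those on IV 0.495% and 4.21% reached the values of vit-6. These values include summits in neighbouring genes. Without summits nearer to another protein-coding gene, vit-2 had 4 in replicate 1 and 2 in replicate 2 in place of 6 and 3. Of those 2, 1 lay outside vit-2 in the ncRNA gene C42D8.16. By the same count vit-6 had 3 and 2 in place of 5 and 3. Inside the gene, the 3 and 1 summits of vit-2 were reached by 18.2% and 62.6% of its matched genes, and the 3 and 2 of vit-6 by 6.19% and 13.6%. The part that repeated sequence has in the counts was not tested.

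**Figure D4:**
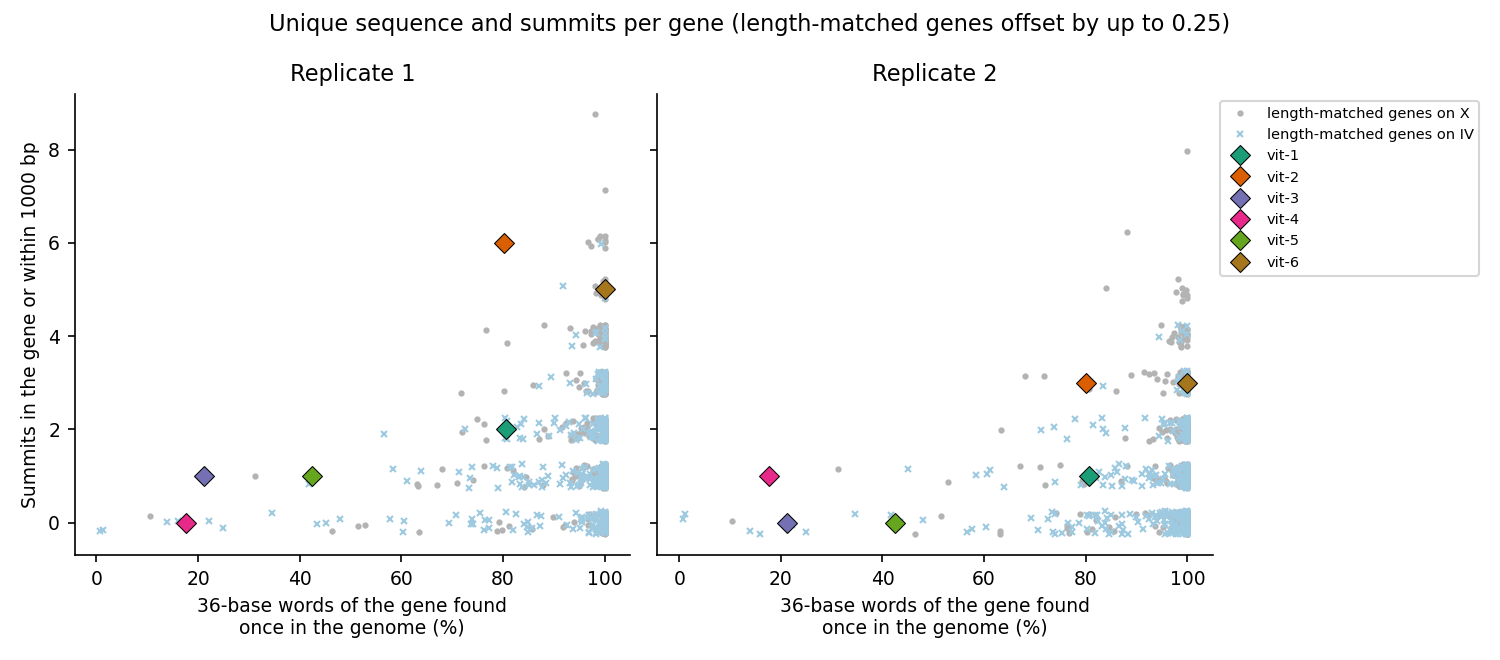
Summits in the gene or within 1000 bp against the percentage of 36-base words of the gene that occur once in the genome, in replicate 1 and replicate 2, for the vit genes (diamonds) and the length-matched genes on X (dots) and IV (crosses), the latter shifted vertically by up to 0.25 so that they can be told apart. vit-3, vit-4 and vit-5 lie at the left with 0 or 1 summit, and vit-2 has 6 summits in replicate 1 at 80.1% unique words.

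All 6 genes are rich in G and C. Their GC content was 45.0% to 48.6%, against a median of 35.9% in matched genes on X and 35.2% on IV. These values cover the whole gene, introns included. The matched genes were chosen by chromosome and length, not by their share of coding sequence, which may differ from that of the vit genes. At most 0.383% of matched genes were as high as a vit gene of X, and none of those on IV was as high as vit-6, at 47.9%. The vit genes with the most summits, vit-2 (48.6%) and vit-6, also had the highest GC content of the 6, and vit-1 followed with 46.7%. The part of GC content in the counts was not tested.

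Overlap between the replicates was counted over the whole family. Of 15 vit regions in replicate 1, 6 (40%) overlapped a region of replicate 2, as did 35.6% of regions at matched genes on X and 30.3% on IV. Of 8 vit regions in replicate 2, 4 (50%) overlapped a region of replicate 1, against 48.1% and 39.9%. Outside the vit genes lay 4 of those 6 and 2 of those 4, in C42D8.9 and K07H8.8. In coding exons of vit genes were 7 of the 15 summits in replicate 1 and 3 of the 8 in replicate 2. Most of each vit gene is coding, with 1603 to 1651 residues encoded in 5133 to 5303 bp. No share for matched genes was computed, so these counts are not read as a preference for coding exons. Above the median of their list were 10 of the 15, all at vit-2 and vit-6, and 6 of the 8. These include summits in C42D8.9 and K07H8.8 in replicate 1, and in C42D8.16 and K07H8.8 in replicate 2. The share above the median at matched genes was not computed. The median density of the vit genes, in summits per kb of gene and flanks, was 0.207 in replicate 1, where matched genes had 0.273 on X and 0.145 on IV. In replicate 2 it was 0.138, where matched genes had 0.161 and 0.124.

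By that density, the matched genes nearest to the vit median in both replicates were F38A1.8 on chromosome IV, lgl-1 on X and acs-17 on X, each with 2 summits in replicate 1 and 1 in replicate 2. The likeness is the sum of 2 differences in density, 0.0415 to 0.0425 summits per kb, over 2 samples, and rests on those few summits. It also depends on length, as these genes are 7028, 6993 and 6942 bp long and the vit genes 5133 to 5303 bp. No vit gene has the median density of replicate 1, which lies between vit-5 (0.140) and vit-1 (0.275).

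Genes of yolk uptake and secretion, regulators of the vit genes and other intestinal genes were read the same way, in 3 lists. Over all 19971 nuclear protein-coding genes, 56.2% had a summit in replicate 1, 45.1% in replicate 2, 32.2% in both, 6.54% in the pooled list and 0.491% in the optimal list. Longer genes have more room for a summit. The median length was 2006 bp over all genes, 5831 bp in the list of yolk uptake and secretion, 10768 bp in the list of regulators and 2060.5 bp in the list of other intestinal genes. None of these 30 genes had an optimal peak.

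Of 6 genes of yolk uptake and secretion, 4 had a summit in replicate 1, 4 in replicate 2 and 3 in both. rme-1, which encodes an endocytic recycling protein, had 4 and 2 summits and the list's only pooled region, inside the gene, with a signal value of 49.7. rme-2, which encodes the yolk receptor of the oocyte, had 2 summits in replicate 1 and 1 in replicate 2, the strongest at 18.8 and 14.5. rme-6, which encodes an activator of the endosomal GTPase Rab5, had 5 and 0. dsc-4, which encodes the microsomal triglyceride transfer protein, had 1 and 2.

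Of 12 regulators, 11 had a summit in replicate 1, 10 in replicate 2 and 10 in both. unc-62, which encodes a Meis-family homeodomain protein, had 2 summits in each replicate, the strongest at 24.7 and 19.3. sgk-1, which encodes a kinase, had 2 and 4, the strongest at 24.6 and 23.5, and rict-1, which encodes the Rictor subunit of a target of rapamycin complex, had 3 in each. lin-29, a zinc finger gene of developmental timing, had 4 and 2 and the list's only pooled region, past its 3′ end, with a signal value of 44.1. elt-7, a GATA factor gene, had none in either replicate, whereas elt-2, the other GATA factor gene named above, had 1 in each.

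Of 12 other intestinal genes, 8 had a summit in replicate 1, 5 in replicate 2 and 5 in both. act-5, which encodes the actin of the microvilli, had 1 in each and the list's only pooled region, inside the gene, with a signal value of 41.2. ges-1, the gut esterase gene, had 1 in replicate 1, with a signal value of 24.9, and 0 in replicate 2. pho-1, an intestinal acid phosphatase gene, and cpr-1, a cathepsin B-like protease gene, each had 2 and 1, and cpr-1 reached a signal value of 26.6 in replicate 2. The 8 and 5 of 12 lie near the shares of all genes, whose median length is about the same.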

How the data were processed

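Lists of ChIP-seq regions in narrowPeak layout, on build ce11, were used as deposited. Per the file notes deposited with the samples, each replicate's lenient list came from its alignment and 1 control alignment, the pooled list from both replicates, and the optimal list from an irreproducible discovery rate (IDR) step. Column 7 holds the authors' signal value, a score whose scale is not stated. The sources used here name neither an aligner nor a peak caller, and give no depth. Lists of build ce10 were not used, since the annotation is WBcel235 and no coordinate was converted. All region ends lay within the WBcel235 chromosome lengths.

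Summits (start plus offset, given 1-based) were counted in each gene and 1000 bp on either side, with Python 3.11.15 and pandas 2.3.3, and ranked by signal value within each list. Exact Clopper-Pearson 95% intervals of the reference shares cover counting error only and were 64.2% to 72.4% on X and 37.7% to 47.6% on IV for a summit in both replicates. Words were counted on both strands over all chromosomes. Proteins were aligned globally with BLOSUM62 in Biopython 1.88. The counting of summits at genes and of repeated words was checked on simulated data, and the other procedures were not. No test was run, since 1 group has no contrast.

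The members and lists were chosen with earlier results of these data known. Named are the 6 vit genes, and up to 4 genes of each list by signal value in the pooled list and then in replicate 1. Also named are neighbours nearer to a counted summit and the 3 genes most alike. elt-2, elt-7 and C42D8.16 were picked after their values were seen. The lists comprise rme-2, rme-1, rme-6, rme-8, dsc-4 and sft-4 (uptake and secretion), elt-2, elt-7, unc-62, ceh-60, pqm-1, mab-3, lrp-2, lin-29, daf-16, daf-2, rict-1 and sgk-1 (regulators), and ges-1, asp-1, cpr-1, act-5, ifb-2, pept-1, vha-6, pho-1, mtl-2, fat-6, fat-7 and acdh-1 (intestinal). Promoter and GC comparisons, counts per kb of unique words and counts without summits of neighbouring genes were added after seeing the data. Alternatives were other distances, any overlap, stronger regions only, 1 replicate only and other reference genes.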

Additional observations from a re-analysis of the deposited data

How the results depend on the processing

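The number of vit genes with a region in replicate 1 was 5, and fell to 2 with regions above the list's median only and to 3 with as many regions as replicate 2 has. In both replicates together it was 3, and 4 to 5 when 1 replicate was left out. The 1 pooled region was lost when summits inside the gene alone were counted. It was lost again when regions nearer to another protein-coding gene were left out, 0 genes in each case. The median density in replicate 1, 0.207 summits per kb, was 0.325 within 2000 bp and 0 with regions above the median. It was 0.0695 with as many regions as replicate 2 has, 0.140 without regions nearer to another protein-coding gene and 0.323 per kb of unique words. In replicate 2 it was 0.138, and 0.191 inside the gene, 0.216 within 2000 bp, 0.0687 with regions above the median and 0.254 per kb of unique words. Matched genes on X with a summit in both replicates made up 68.4%, 62.6% with 0.5 to 2 times the length and 48.7% with all lengths, and those on IV 42.6% and 28.7% with all lengths. The median share of unique words in the vit genes was 61.3% with 36 bases and 68.9% with 50 bases. The other 38 values stayed within 1.5 times or the spread of the replicates. No paired analysis was possible because there is 1 group. Groups of 2 replicates are too small for a check of outlying samples. Read depth is unknown, so a gene without a region may still carry signal below the lists' lowest values, 13.3 in replicate 1 and 12.8 in replicate 2.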
